A study of Mus musculus with 12 samples.

Results

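The genome encodes a large family of RNA helicases whose gene symbols start with Ddx or Dhx, and the 49 genes described here are those left when Ddx5, its close relative Ddx17 and the RNA sensors Ddx58 and Dhx58 are set aside. They are all rows of the 2 gene count tables whose symbol is Ddx or Dhx followed by a number and at most a letter suffix, 34 Ddx and 15 Dhx genes out of 53 such symbols and 17912 genes in all. All 49 were in both tables and all are protein coding in RefSeq. The series measured polyadenylated RNA in the left ventricle of male mice whose cardiomyocytes had lost Ddx5, and the helicases were examined for change beside the lost Ddx5. The libraries form 4 groups of 3. The constitutive knockout (mCKO, genotype DDX5fl/fl MYH6Cre+) was left untreated and sampled at 8 weeks of age, and its controls were floxed mice of that age without Cre (CTR1, Ddx5flox/flox). The inducible knockout (iCKO, genotype Ddx5flox/flox Myh6MerCreMer) received tamoxifen by intraperitoneal injection at 20 mg/kg/day for 5 days, and its controls were Cre-free floxed mice given the same tamoxifen (CTR2, Ddx5flox/flox). The design text places collection after 7 days of tamoxifen injection, which does not fix the injection the days are counted from, and the labels give no age for iCKO and CTR2. All 4 groups carry floxed Ddx5 alleles, and both Cre transgenes are driven by the Myh6 promoter of cardiomyocytes, so other cell types of the ventricle keep the gene. As the controls lack Cre, an effect of the recombinase and an effect of Ddx5 deletion cannot be told apart. The labels do not say that replicates came from separate animals, so p-values measure the spread between these libraries.

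DEAD-box and DEAH-box proteins are named after a short amino acid motif of their ATP-binding core. They use ATP to bind, unwind or remodel RNA and to strip proteins from it. DEAD-box enzymes mostly open short duplexes where they sit, while DEAH-box enzymes mostly pull on an RNA strand from its end. Almost every step of RNA life depends on dedicated members: the cycle of the spliceosome, the export of mRNA, the nucleolar assembly of ribosomal subunits, the start of translation and the decay of mRNA. In the heart, a muscle of mostly non-dividing cells, these genes serve housekeeping roles, and a few members act in germ cells or in the sensing of viral RNA.

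Library totals lay between 19682268 and 25871882 gene counts, so a count of 0 allows up to 3 counts, which is 0.106 to 0.157 CPM, the counts of a gene in a library scaled to 1000000 counts. Levels are CPM scaled by TMM size factors, and CPM is divided by exon length in kilobases where genes are compared with each other. Ddx5 itself was lower in every knockout library, at 40.9% of CTR1 in mCKO and 33.7% of CTR2 in iCKO on average. Replicate 3 of mCKO, CTR1 and iCKO and replicate 2 of CTR2 stood apart from the other libraries of their groups, and those of mCKO and CTR1 deviated together (r = 0.823 across genes). The cell type markers moved most in the iCKO experiment. All 6 cardiomyocyte markers were present in every group, with a summed level of 30686 to 38764 CPM in iCKO libraries and 70820 to 74752 CPM in CTR2 libraries. The 8 macrophage markers summed to 547 to 992 CPM in iCKO and 212 to 271 CPM in CTR2, the 7 fibroblast markers to 2592 to 4035 CPM in iCKO and 819 to 939 CPM in CTR2, and the 4 markers of dividing cells to 32.2 to 76.6 CPM in iCKO and 7.59 to 14.3 CPM in CTR2. The 5 endothelial markers summed to 561 to 718 CPM in iCKO and 948 to 1081 CPM in CTR2. In mCKO the cardiomyocyte sum was 34243 to 63826 CPM against 42465 to 74218 CPM in CTR1, and the macrophage sum 447 to 662 CPM against 327 to 410 CPM in CTR1. The part of cell composition in the helicase changes was not tested, and in bulk tissue fewer cells of a type and less RNA per cell cannot be told apart.

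No helicase gene passed the test in the constitutive knockout, and neither did the deleted gene itself. Of the 47 members tested, 44 had a log2 fold change under 0.2 in size, and the median was -0.03 against 0.01 over all 13353 genes tested. The test was edgeR's quasi-likelihood test at a Benjamini-Hochberg adjusted p of 0.05, which 0.0% of all genes passed in either direction. Ddx5, with a log2 fold change of -1.29, had an adjusted p of 0.170 without the replicate block and 0.00192 with it (edgeR), so 0 helicase calls do not show that the members were stable. None of the 47 had an unadjusted p under 0.05, and DESeq2 and limma-voom called 0 as well. Over all 13353 genes limma-voom called 0, while DESeq2 called 176 higher and 134 lower. Ddx5 was among the lower (log2 fold change -1.30, adjusted p = 1.39e-06, DESeq2). Ddx25 and Ddx43, with at most 5 counts in any library, fell below the filter on low counts. With the replicate number as a block, 1 member was called higher and 0 lower, against 7.32% of all genes called higher and 6.45% lower. Libraries numbered 3 of mCKO and CTR1 deviated together (r = 0.823). Libraries 1 and 2 correlated across numbers (0.529 and 0.553) about as much as within them (0.464 and 0.532). How libraries 1 and 2 pair, if at all, is not settled by these values. With the block and library sizes in place of TMM factors 3 members, Ddx4, Ddx21 and Ddx31, were higher and 0 lower, beside 11.8% of all genes higher and 3.55% lower. The share of higher genes among all calls was then 76.9%, against 53.2% with the block and TMM factors. Groups did not overlap for 4 members, higher for Ddx21, Dhx16 and Dhx37 and lower for Ddx50, while 7.69% of all genes were higher and 7.3% lower without overlap.

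The member called with the block was Ddx4, the mouse Vasa gene, which marks the germ line. Its level was 0.876, 1.81 and 0.294 CPM in mCKO libraries and 0.440, 0.522 and 0.0927 CPM in CTR1 libraries. The groups overlapped, and within each number the mCKO library was the higher one. These levels are 7 to 36 counts in mCKO and 2 to 10 counts in CTR1, and the CTR1 library numbered 3 lies at the limit that a count of 0 allows. The log2 fold change was 1.48 ± 0.81 without the block (adjusted p = 0.725) and 1.45 ± 0.42 with it (adjusted p = 0.0434, edgeR; ± is the standard error throughout). Without mCKO replicate 2, the library with the most Ddx4 reads, it was 0.73. The germ cell markers Dazl and Sycp3 summed to 0.0876 to 0.352 CPM in mCKO and 0.139 to 0.293 CPM in CTR1, near the limit that a count of 0 allows, where a change could not be seen.

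The next largest values in mCKO were small and not called. Ddx31, a nucleolar helicase, had 4.60, 5.48 and 5.96 CPM in mCKO and 3.13, 3.76 and 4.91 CPM in CTR1, a log2 fold change of 0.44 ± 0.22 (adjusted p = 0.681). Its groups overlapped only through the lowest mCKO and the highest CTR1 library. Dhx37, which acts in assembly of the small ribosomal subunit, stood at 0.20 ± 0.10 (adjusted p = 0.668), and Ddx11, a DNA helicase of chromatid cohesion, at 0.17 ± 0.35 (adjusted p = 0.980). The lowest were Dhx32 at -0.20 ± 0.15 (adjusted p = 0.849), Ddx50, the paralog of Ddx21, at -0.18 ± 0.10 (adjusted p = 0.726) and Ddx3y at -0.17 ± 0.17 (adjusted p = 0.915).

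**Figure D1:**
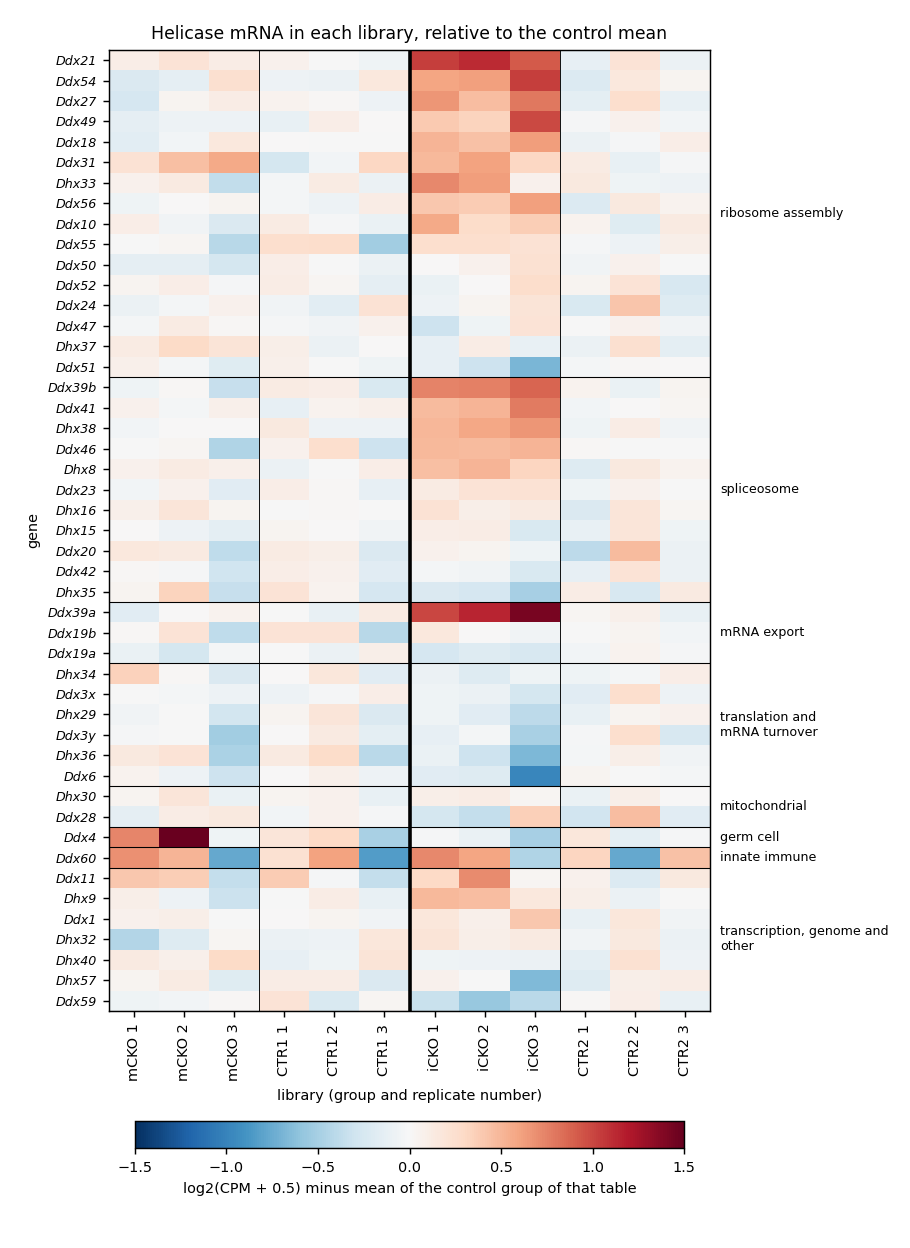
Level of the 47 tested helicase genes (rows, grouped by role) in each library (columns, group and replicate number), as log2(CPM + 0.5) minus the mean of the control group of the same table, with red for higher and blue for lower. The 3 iCKO columns are red for most called genes of ribosome assembly, splicing and export, and the mCKO columns are pale for most genes. In mCKO, Ddx4 and Ddx60 are red in replicates 1 and 2, and Ddx31 is light red. Replicate 3 of mCKO is blue for Ddx60 and light blue for some others, such as Ddx3y and Dhx36.

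In the inducible knockout 12 helicase genes rose and 1 fell. The 12 were Ddx18, Ddx21, Ddx27, Ddx49, Ddx54 and Ddx56 of ribosome assembly, Ddx39b, Ddx41, Ddx46, Dhx8 and Dhx38 of the spliceosome, and the export helicase Ddx39a. Their log2 fold changes ran between 0.43 and 1.22, and the gene that fell was Ddx59. The 12 of 47 higher members stand against 25.2% of all 13548 genes called higher, so the share is near the background, and the 1 lower member stands against 19.5% of all genes called lower. The median over the members was 0.10, against 0.03 over all genes tested, and 18 of the 47 had a log2 fold change under 0.2 in size. The iCKO and CTR2 ranges were apart for 23 members, 17 of them higher and 6 lower, against 31.9% of all genes higher and 27.0% lower without overlap.

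The number of higher calls fell when some controls were left out, and so did that of all genes. It was 6 without CTR2 replicate 1 and 7 without CTR2 replicate 3, and between 10 and 14 without any other library of the 6. Over all genes, 3420 of 13548 were called higher with every library kept. Without CTR2 replicate 1 it was 2578 of 13817, and without CTR2 replicate 3 it was 2425 of 13830. Library sizes in place of TMM factors raised the median of all genes by 0.21. With them 18 members were higher and 0 lower, beside 33.9% of all genes higher and 13.5% lower. The share of higher genes among all calls was then 71.5%, against 56.4% with TMM factors.

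**Figure D2:**
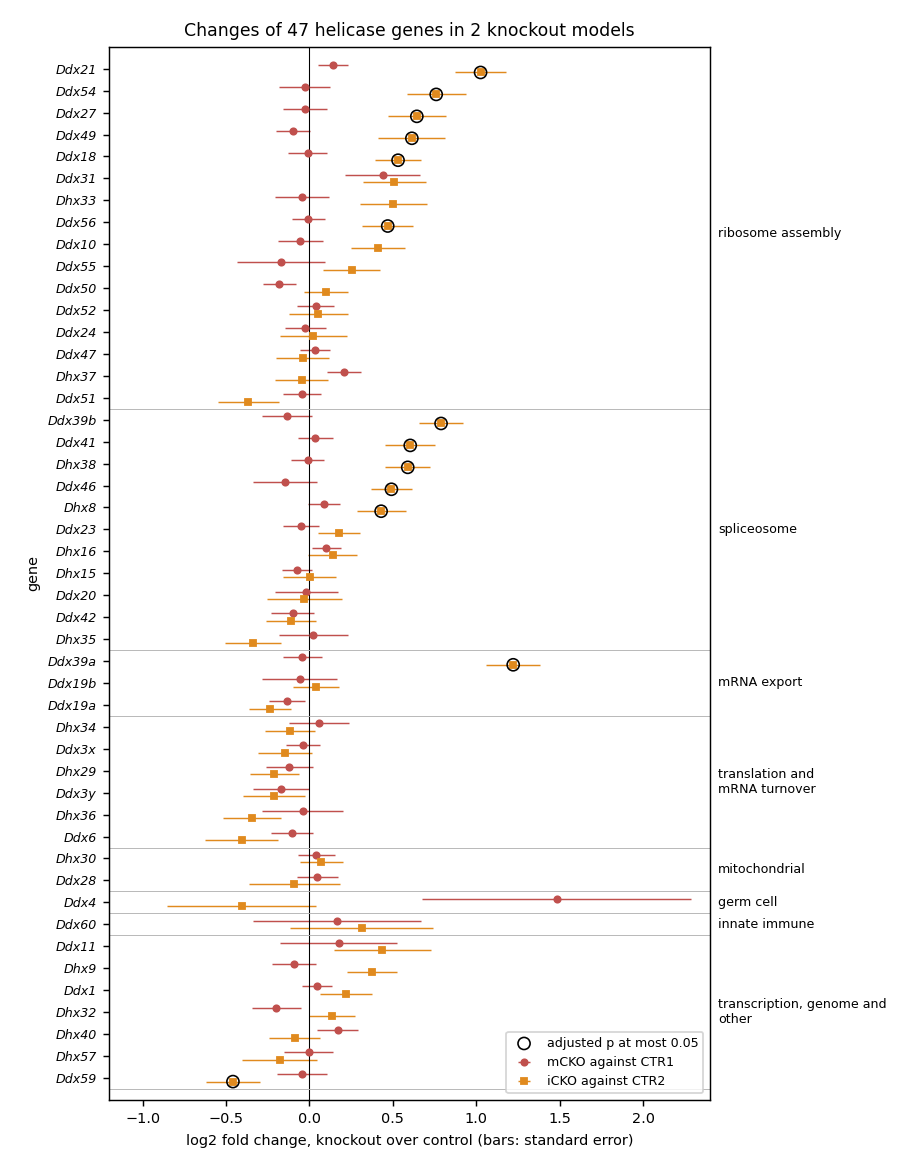
Log2 fold change with its standard error of the 47 tested helicase genes (rows, by role), for mCKO against CTR1 (red circles) and iCKO against CTR2 (orange squares). Ringed points passed an adjusted p of 0.05 in edgeR: 12 orange points to the right of 0 and Ddx59 to the left, and no red point.

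Helicases of ribosome assembly work in the nucleolus, where they release guide RNAs from the precursor of ribosomal RNA and let assembly factors come and go. Of the 16 listed, 6 rose in iCKO and none fell, with a median of 0.44, beside 25.2% of all genes called higher, 19.5% called lower and a median of 0.03. Without CTR2 replicate 1, 2 of the 16 were called, beside 2578 of all 13817 genes called higher. Without CTR2 replicate 3 it was 3, beside 2425 of 13830. The level per kilobase, summed over the 16, was 142, 144 and 158 CPM in iCKO. In CTR2 it was 102, 122 and 106 CPM, without overlap. In mCKO it was 93.6, 98.9 and 98.9 CPM against 97.0, 94.6 and 98.3 CPM in CTR1, and those ranges overlap.

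Ddx21, a nucleolar helicase that binds ribosomal RNA genes and their transcripts, changed most among them. It reached 148, 157 and 136 CPM in iCKO libraries, against 66.1, 82.8 and 67.8 CPM in CTR2 libraries. Every iCKO library lay far above every CTR2 library, and the log2 fold change was 1.03 ± 0.15 (adjusted p = 0.00101, edgeR). In mCKO the same gene had 57.6, 62.0 and 57.8 CPM, against 56.0, 53.5 and 51.4 CPM in CTR1. These groups do not overlap either, but the distance was small, at 0.14 ± 0.09 (adjusted p = 0.784). The call in iCKO was kept in all 17 alternative fits.

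Ddx54, whose yeast counterpart Dbp10 acts on the large subunit, had 68.6, 69.4 and 93.1 CPM in iCKO and 39.2, 50.7 and 46.5 CPM in CTR2. The iCKO libraries were all higher, and replicate 3 was the highest. It rose by 0.76 ± 0.18 (adjusted p = 0.00862), while mCKO showed -0.03 ± 0.15 (adjusted p = 0.994). Ddx27, a partner of the PeBoW complex of large-subunit assembly, had 32.3, 27.8 and 35.1 CPM in iCKO and 18.1, 24.2 and 18.7 CPM in CTR2. The groups were apart, with CTR2 replicate 2 nearest to iCKO, and the change was 0.64 ± 0.17 (adjusted p = 0.0163).

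Ddx18, the counterpart of yeast Has1, had 31.4, 30.0 and 34.1 CPM in iCKO and 20.8, 21.8 and 23.6 CPM in CTR2, without overlap. It rose by 0.53 ± 0.14 (adjusted p = 0.0149). Ddx49, which acts on the ribosomal RNA precursor in human cells, had 27.8, 26.7 and 42.6 CPM in iCKO and 20.8, 22.0 and 20.6 CPM in CTR2. Its mean rests much on iCKO replicate 3, and the change of 0.61 ± 0.20 (adjusted p = 0.0358) was 0.30 (adjusted p = 0.137) without both libraries numbered 3, a fit added after the data were seen. Ddx56, the counterpart of yeast Dbp9, had 40.2, 39.6 and 46.5 CPM in iCKO and 26.3, 33.4 and 31.5 CPM in CTR2, also without overlap. It rose by 0.47 ± 0.15 (adjusted p = 0.0339).

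Several of these calls were lost when 1 library was left out. Ddx27 had adjusted p = 0.0709 without CTR2 replicate 1 and 0.0777 without CTR2 replicate 3. Ddx18 had 0.0678 without CTR2 replicate 1, and Ddx49 0.102, 0.0713 and 0.112 without CTR2 replicates 1, 2 and 3. Ddx56 had 0.0571, 0.0659 and 0.0553 without iCKO replicates 1, 2 and 3, 0.138 without CTR2 replicate 1 and 0.0984 without CTR2 replicate 3. Exons of Ddx49 overlap the opposite-strand gene Homer3 over 29.8% of their length, and those of Ddx54 overlap Cfap73 and Gm43579 over 15.5%. Whether the counting used the strand is not given in the sources used here, and Homer3 itself was not called in iCKO (0.39 ± 0.21, adjusted p = 0.164).

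The other 10 members of the group did not pass the test in iCKO. Ddx31 stood at 0.51 ± 0.19 (adjusted p = 0.0575) and was called at 0.55 (adjusted p = 0.0369) without iCKO replicate 3. Ddx51, which frees a small nucleolar RNA from the large-subunit precursor, had 15.6, 13.6 and 10.4 CPM in iCKO and 16.7, 17.3 and 17.1 CPM in CTR2. It was lower in every iCKO library, at -0.37 ± 0.18 (adjusted p = 0.132). Ddx24, Ddx47, Ddx52, Ddx50 and Dhx37 lay between -0.05 and 0.10. Ddx24 shows how a control library can stand apart: it had 131, 142 and 158 CPM in iCKO and 118, 184 and 121 CPM in CTR2.

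Spliceosomal helicases drive the spliceosome from one assembly state to the next and set it free at the end. Of the 11 listed, 5 rose in iCKO and none fell, with a median of 0.18, beside the same 25.2% higher and 19.5% lower over all genes. The 5 calls became 3 without CTR2 replicate 1, beside 2578 of all 13817 genes called higher. Without CTR2 replicate 3 they became 3, beside 2425 of 13830. The 11 summed to 141, 142 and 143 CPM per kilobase in iCKO. In CTR2 the sums were 105, 115 and 109 CPM per kilobase, without overlap. In mCKO the sums were 110, 114 and 95.6 CPM per kilobase against 116, 115 and 100 CPM per kilobase in CTR1, with the library numbered 3 lowest in both groups.

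Ddx39b, also known as UAP56, takes part in the first steps of spliceosome assembly and in the loading of export factors onto mRNA. Its level was 155, 156 and 170 CPM in iCKO and 96.1, 86.5 and 95.7 CPM in CTR2. All iCKO libraries were far above all CTR2 libraries, and it rose by 0.79 ± 0.13 (adjusted p = 0.00203, edgeR). In mCKO it had 111, 118 and 91.5 CPM against 127, 125 and 99.0 CPM in CTR1, a change of -0.13 ± 0.15 (adjusted p = 0.936) with overlapping groups.

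Dhx38, the mammalian PRP16 that remodels the spliceosome between its catalytic steps, had 49.8, 52.7 and 55.7 CPM in iCKO and 33.5, 37.8 and 33.8 CPM in CTR2. The groups were well apart and the change was 0.59 ± 0.13 (adjusted p = 0.00767). Ddx46, the mammalian PRP5 that prepares the branch site, had 97.1, 96.1 and 98.8 CPM in iCKO and 69.8, 69.1 and 68.8 CPM in CTR2. Both groups were tight and separate, at 0.49 ± 0.12 (adjusted p = 0.0123). Ddx41, a helicase of the catalytic spliceosome that also senses cytosolic DNA, had 26.5, 27.1 and 32.9 CPM in iCKO and 18.5, 19.1 and 19.3 CPM in CTR2, without overlap. It rose by 0.60 ± 0.15 (adjusted p = 0.0115), and 17.4% of its exon length overlaps the opposite-strand gene Gm46416.

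Dhx8, the mammalian PRP22 that releases the spliced mRNA, had 44.4, 46.1 and 40.6 CPM in iCKO and 28.1, 35.7 and 33.4 CPM in CTR2. The groups were apart, and the change of 0.43 ± 0.15 was close to the threshold (adjusted p = 0.0416). Leaving out iCKO replicate 1, iCKO replicate 2, CTR2 replicate 1 or CTR2 replicate 3 gave adjusted p = 0.0947, 0.129, 0.164 and 0.118 for Dhx8. Ddx46 had 0.0522 without CTR2 replicate 1 and 0.0663 without CTR2 replicate 3. The other 6 spliceosomal members, Ddx20, Ddx23, Ddx42, Dhx15, Dhx16 and Dhx35, lay between -0.34 and 0.18 and were not called. Ddx42, a helicase of the branch-site complex, had 54.7, 53.8 and 47.9 CPM in iCKO and 51.3, 64.8 and 52.8 CPM in CTR2, and the groups overlapped (-0.11 ± 0.15, adjusted p = 0.569). Dhx15, the mammalian PRP43 that takes spent spliceosomes apart, had equal means of 90.7 ± 11.6 CPM in iCKO and 90.6 ± 10.01 CPM in CTR2 (SD, n = 3 each).

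**Figure D3:**
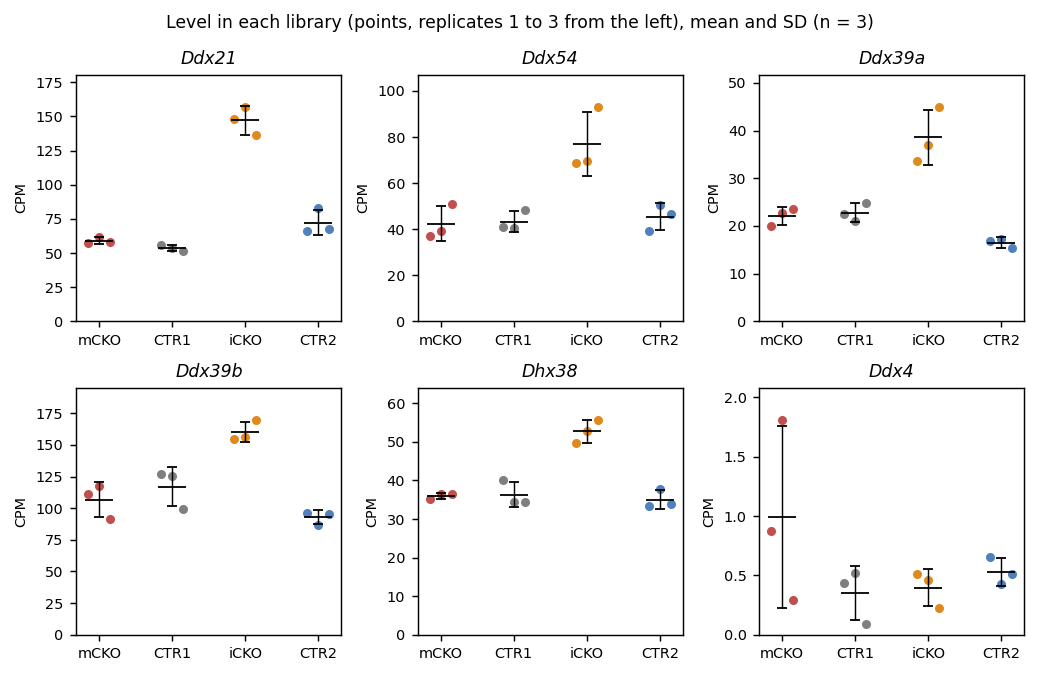
Level in CPM of Ddx21, Ddx54, Ddx39a, Ddx39b, Dhx38 and Ddx4 in each library (points), with the mean and SD of each group of 3 (bars). For the first 5 genes all iCKO points lie above all CTR2 points, while mCKO and CTR1 points lie close together, and Ddx4 stays under 2 CPM in every library.

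The largest log2 fold change among the members called in iCKO was that of an export helicase. Ddx39a, also known as URH49, is the paralog of Ddx39b and serves mRNA export through a complex of its own. Its level was 33.7, 37.0 and 44.98 CPM in iCKO and 16.9, 17.4 and 15.3 CPM in CTR2. The lowest iCKO library lay well above the highest CTR2 library, and the log2 fold change was 1.22 ± 0.16, a 2.33-fold rise (adjusted p = 0.000621, edgeR). In mCKO it had 20.1, 22.8 and 23.6 CPM, against 22.6, 20.9 and 24.8 CPM in CTR1, and the groups overlapped (-0.04 ± 0.12, adjusted p = 0.986). The call in iCKO was kept in all 17 alternative fits. Ddx39a and Ddx39b encode proteins with 91.1% identical residues, so reads could be split between them, and 17.4% of the exon length of Ddx39a overlaps the opposite-strand gene Adgre5, which did not pass the test in iCKO (-0.06 ± 0.17, adjusted p = 0.798).

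Ddx19a and Ddx19b, near-identical counterparts of yeast Dbp5 at the nuclear pore (95.4% identical residues), were not called. Ddx19a had 30.5, 31.7 and 30.8 CPM in iCKO and 35.4, 38.0 and 36.1 CPM in CTR2. Every iCKO library was lower, at -0.24 ± 0.13 (adjusted p = 0.164). Ddx19b had 27.9, 25.1 and 24.1 CPM in iCKO and 25.0, 25.9 and 24.2 CPM in CTR2, with overlap. Of the 4 export members tested, Ddx39b among them, 2 rose and none fell, beside 25.2% of all genes higher and 19.5% lower.

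Helicases of translation and mRNA turnover went without a call in iCKO, beside 25.2% of all genes called higher and 19.5% lower by edgeR. The 6 listed had a median of -0.21 and all lay below 0, between -0.41 and -0.12, with 0 called in either direction by edgeR, DESeq2 or limma-voom, and 0, 1 and 0 at an unadjusted p under 0.05. With library sizes in place of TMM factors their median was 0.00. Ddx3x, an abundant X-linked helicase of translation initiation, had 312, 305 and 272 CPM in iCKO and 288, 389 and 307 CPM in CTR2, and the groups overlapped (-0.15 ± 0.16, adjusted p = 0.497). Its Y-linked partner Ddx3y had 127, 136 and 98.6 CPM in iCKO and 136, 164 and 117 CPM in CTR2 (-0.21 ± 0.19, adjusted p = 0.380). CTR2 replicate 2 held the highest level of both genes, and their 91.2% identical proteins make a split of reads possible. Ddx6, which represses mRNA in processing bodies, had 188, 185 and 107 CPM in iCKO and 218, 210 and 208 CPM in CTR2. It was lower in all iCKO libraries, mostly in replicate 3, and did not pass the test (-0.41 ± 0.22, adjusted p = 0.163). In mCKO the 6 genes had a median of -0.07, with 0 called by edgeR, beside 0.0% of all genes.

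The members with other roles gave 1 call in iCKO, beside 25.2% of all genes called higher and 19.5% called lower. Ddx59, a gene linked to ciliary signalling in humans, had 9.28, 7.86 and 8.83 CPM in iCKO and 12.04, 12.7 and 10.9 CPM in CTR2. It was lower in every iCKO library and fell by 0.46 on the log2 scale (standard error 0.16, adjusted p = 0.0479). The call was lost without iCKO replicate 1 (adjusted p = 0.0693), iCKO replicate 2 (0.159) or any CTR2 replicate (0.119, 0.106 and 0.0901 for replicates 1, 2 and 3), and with library sizes alone (-0.25, adjusted p = 0.226). Ddx1, a helicase of the tRNA ligase complex, had 143, 134 and 168 CPM in iCKO and 117, 143 and 122 CPM in CTR2, with overlap (0.22 ± 0.16, adjusted p = 0.279). Dhx9, known as RNA helicase A, had 131, 128 and 104 CPM in iCKO and 98.5, 87.7 and 92.8 CPM in CTR2. Its groups did not overlap, and the change of 0.38 ± 0.15 missed the threshold (adjusted p = 0.0678).

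Among the 4 members with roles in innate immunity, Ddx41 rose in iCKO, and Ddx60, Dhx9 and Dhx33 did not pass the test. This stands beside 25.2% of all genes called higher and 19.5% called lower. Ddx60, which interferon induces, had 6.83, 6.20 and 2.76 CPM in iCKO and 5.06, 2.12 and 5.56 CPM in CTR2, and the groups overlapped. In the other experiment it had 14.8, 13.0 and 5.08 CPM in mCKO and 10.6, 13.9 and 4.82 CPM in CTR1, where the library numbered 3 was lowest in both groups. The mitochondrial members Dhx30 and Ddx28 lay at 0.07 ± 0.13 and -0.09 ± 0.27 in iCKO and were not called. The germ cell gene Ddx4 had 0.511, 0.458 and 0.224 CPM in iCKO and 0.658, 0.424 and 0.510 CPM in CTR2, without the higher mCKO values (-0.40 ± 0.45, adjusted p = 0.488).

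The effects of the 2 models differed for 4 helicase genes, each lower in mCKO than in iCKO relative to its own control. The difference, taken as the mCKO effect minus the iCKO effect in 1 fit of all 12 libraries, was -1.23 ± 0.21 for Ddx39a (adjusted p = 0.00193), -0.89 ± 0.20 for Ddx39b (adjusted p = 0.00905), -0.85 ± 0.17 for Ddx21 (adjusted p = 0.00463) and -0.57 ± 0.16 for Dhx38 (adjusted p = 0.0297). These are 4 lower calls among 47 members, against 9.88% of all 13871 genes called lower, a share near the background. No member was called higher by edgeR, DESeq2 or limma-voom, against 11.0% of all genes by edgeR, and 12 of 47 had an unadjusted p under 0.05 in either direction. The values of Ddx39a, Ddx39b and Ddx21 passed in all 24 alternative fits, and that of Dhx38 in 18 of 24. Dhx38 was not called without mCKO replicate 1 (adjusted p = 0.0731) or without CTR1 replicate 1 (adjusted p = 0.0504). Ddx54 missed the threshold by little (-0.76 ± 0.25, adjusted p = 0.0501) and was called without mCKO replicate 3, CTR1 replicate 2, iCKO replicate 1, iCKO replicate 2 or CTR2 replicate 2 (adjusted p = 0.0223, 0.0491, 0.0340, 0.0477 and 0.0331).

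The count of differing members depended on scaling. With library sizes in place of TMM factors, which lowers the median of all genes by 0.17, 13 members were called lower and 0 higher, beside 15.5% of all genes lower and 7.95% higher. The share of higher genes among all calls was then 34.0%, against 52.6% with TMM factors. With the replicate block 6 members were lower and Ddx4 was higher, beside 13.3% of all genes lower and 14.8% higher. Without iCKO replicate 1, iCKO replicate 2 or CTR2 replicate 2 the count was 7. Over all genes the lower calls were then 1615 of 14072, 1117 of 14004 and 1409 of 14092. The 2 experiments also differ in tamoxifen, and perhaps in age, which the labels do not give for iCKO and CTR2, and these cannot be told apart from the Cre line.

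The summed helicase level overlapped its control in mCKO and was larger in iCKO. The CPM per kilobase of the 49 genes summed to 372, 381 and 349 in mCKO libraries, against 381, 383 and 365 in CTR1 libraries. The ranges overlap, and the mCKO mean was 97.6% of the CTR1 mean, or 103% with library sizes in place of TMM factors. In iCKO the sums were 508, 506 and 504.2, against 419, 488 and 428 in CTR2, so that every iCKO library was higher and the mean was 114% of CTR2. CTR2 replicate 2 came close to the iCKO libraries. Ddx39b alone is the second most abundant member, and its rise is part of this sum.

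The sizes of these sums can be set beside the lost Ddx5. In CPM per kilobase, Ddx5 was lower by 71.1 in iCKO than in CTR2 (means of 36.2 and 107), while the 49 helicases were higher by 60.7 and Ddx17 by 9.18. The total of all 51 genes was 575 ± 12.3 in iCKO and 576 ± 49.5 in CTR2 (SD, n = 3 each), 99.8% of control. In mCKO, Ddx5 was lower by 56.9 than in CTR1 (means of 39.4 and 96.3), the 49 helicases were lower by 9.19 and Ddx17 was higher by 8.38. The total was 444 ± 27.2 in mCKO and 502 ± 43.1 in CTR1, 88.5% of control. Ddx5 made up 8.87% of this total in mCKO and 19.0% in CTR1, and 6.30% in iCKO and 18.6% in CTR2. The match of the iCKO and CTR2 totals depended on the scaling. With library sizes in place of TMM factors, a scaling added after the sums were seen, the total was 619 ± 32.6 in iCKO and 535 ± 42.4 in CTR2, 116% of control, and the 49 helicases were higher by 131. In mCKO that scaling gave a total of 93.3% of control, with the 49 helicases higher by 10.2. These are sums of RNA from all cells of the ventricle and carry no test.

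**Figure D4:**
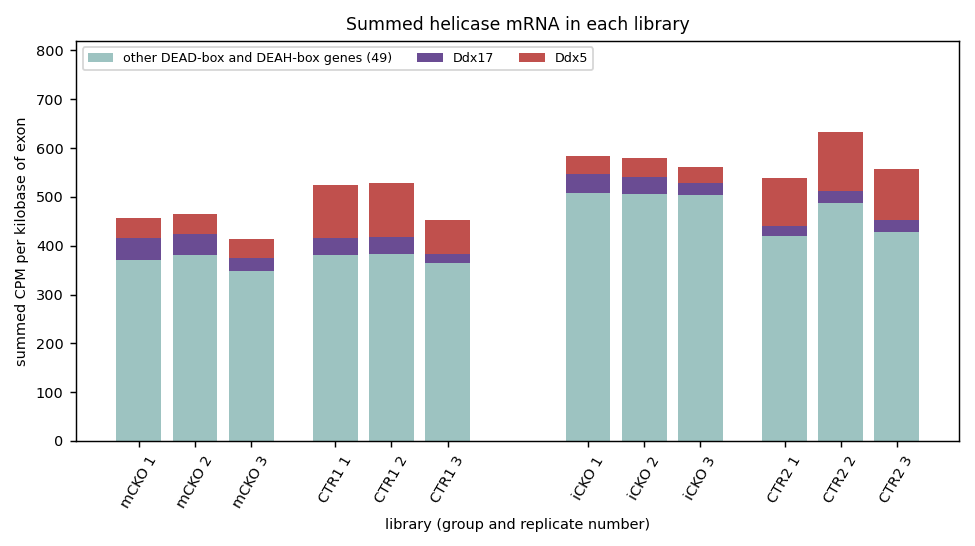
Stacked level in CPM per kilobase of exon, in each library, of the 49 helicase genes together (bottom), Ddx17 (middle) and Ddx5 (top). The iCKO stacks reach 561 to 584 and the CTR2 stacks 539 to 632, with a smaller Ddx5 block in iCKO, and the mCKO stacks reach 413 to 464 against 453 to 529 in CTR1.

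Levels within the family spanned a wide range. Per kilobase, the most abundant members over the 12 libraries were Ddx3x with a mean of 48.4 CPM, Ddx39b with 31.5, Ddx1 with 23.5, Ddx6 with 21.6 and Ddx3y with 18.9, followed by Ddx21 with 16.04. At the other end, Ddx4, Ddx25 and Ddx43, all genes of the germ line, summed to at most 0.646 CPM per kilobase in any library. In mCKO the most abundant members were not called. Ddx3x had 199.99, 197 and 190.3 CPM in mCKO and 189.7, 198 and 215 CPM in CTR1, with overlap (-0.04 ± 0.10, adjusted p = 0.986). Ddx1 stood at 0.05 ± 0.09 (adjusted p = 0.979) and Ddx6 at -0.10 ± 0.13 (adjusted p = 0.947) in mCKO.

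Among the members whose proteins are most like DDX5, Ddx46 was called in iCKO. Ddx17 shares 70.7% of the residues of DDX5 in a local alignment and is not one of the 49. By alignment score the nearest members were Ddx42, with 36.3% of DDX5 residues identical, Ddx46 with 29.1% and Ddx43 with 32.4%, followed by Ddx3x with 36.7% and Ddx3y with 32.5%. Of these, Ddx46 rose in iCKO, and Ddx42, Ddx3x and Ddx3y were not called, beside 25.2% of all genes called higher and 19.5% called lower. Ddx43 was too low to test, with 0 to 5 counts in every library. In mCKO none of them was called by edgeR without the block, beside 0.0% of all genes. Ddx39a and Ddx21, with the largest changes in iCKO, share 17.6% and 21.0% of DDX5 residues. Ddx17 itself had a log2 fold change of 0.48 ± 0.20 in iCKO (adjusted p = 0.0873) and 0.36 ± 0.30 in mCKO (adjusted p = 0.882), and in mCKO it was called with the block (0.38 ± 0.07, adjusted p = 0.00538). Without iCKO replicate 3 it was called in iCKO too (0.63, adjusted p = 0.00271).

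**Figure D5:**
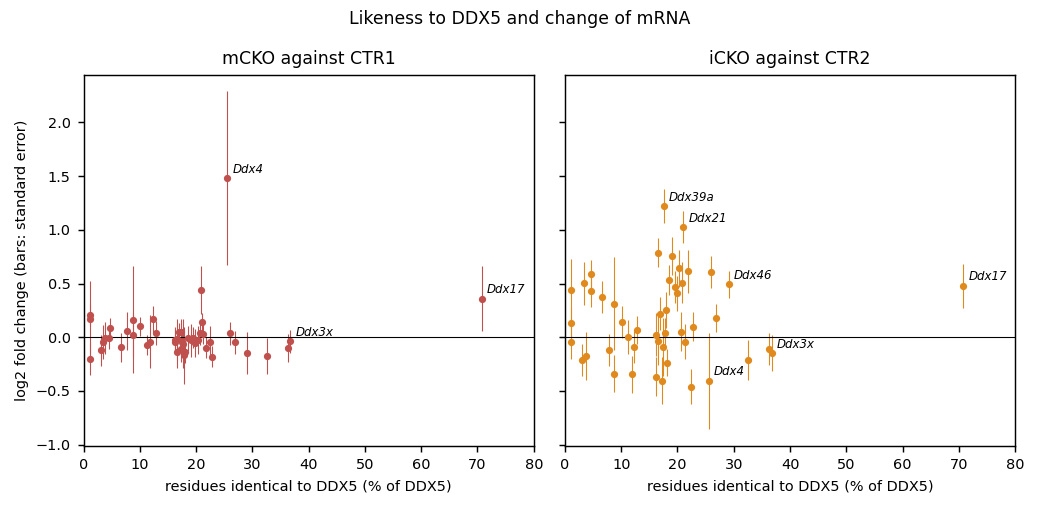
Log2 fold change with its standard error (vertical axis) against the share of DDX5 residues that are identical in a local alignment (horizontal axis, %), for the 47 tested helicase genes and Ddx17, in mCKO against CTR1 (left) and iCKO against CTR2 (right). Ddx17 stands alone at 70.7%, and the genes with the largest rises in iCKO, Ddx39a and Ddx21, lie near 20% of DDX5 residues.

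Helicases with other symbols and helicase partners, not all of them partners of the 49 genes, were read from lists of their own. Among 18 other RNA helicases 3 rose and 2 fell in iCKO, shares below the 25.2% and 19.5% of all genes. Eif4a1, the helicase that unwinds mRNA for translation initiation, had 492, 551 and 823 CPM in iCKO and 208, 279 and 213 CPM in CTR2. All iCKO libraries were well above all CTR2 libraries, and it rose by 1.42 ± 0.23 (adjusted p = 0.00166). In mCKO it was not called (0.05 ± 0.11, adjusted p = 0.984). Its paralog Eif4a2 had 242, 211 and 175 CPM in iCKO and 383, 463 and 357 CPM in CTR2, and fell by 0.94 (standard error 0.18, adjusted p = 0.00353). In mCKO Eif4a2 had 229, 240.0 and 220 CPM against 322, 318 and 306 CPM in CTR1, without overlap. It was not called without the block (-0.46 ± 0.10, adjusted p = 0.248), and with the block it fell by 0.46 (standard error 0.06, adjusted p = 0.00116).

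Of 34 helicase partners, 10 rose and 2 fell in iCKO, beside 25.2% of all genes higher and 19.5% lower, so the share that rose is near the background. Leaving out CTR2 replicate 1 brought the 10 to 6, beside 2578 of all 13817 genes called higher. Leaving out CTR2 replicate 3 brought the 10 to 4, beside 2425 of 13830. Alyref, the export adaptor that Ddx39b loads onto mRNA, rose by 1.01 ± 0.14 (adjusted p = 0.00069), and Thoc6, a subunit of the THO complex that works with Ddx39b, by 1.17 ± 0.18 (adjusted p = 0.00118). Gpatch4, a G-patch protein of the nucleolus, rose by 1.06 ± 0.18 (adjusted p = 0.00200), and Gemin4, a partner of Ddx20, by 0.72 ± 0.17 (adjusted p = 0.00932). Lsm14b, a partner of Ddx6, fell by 0.78 (standard error 0.16, adjusted p = 0.00559). In mCKO without the block 0 partners and 0 other helicases were called by edgeR, beside 0.0% of all genes. In edgeR 1 of each had an unadjusted p under 0.05. DESeq2 called 1 of each, beside 176 higher and 134 lower of all 13353 genes. With the block 1 partner rose in mCKO, the decay factor Patl1 (0.52 ± 0.07, adjusted p = 0.000908), and 2 fell. This stands beside 7.32% of all genes called higher and 6.45% called lower with the block.

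Bases upstream of RefSeq starts were at hand for 44 of the 49 genes, although RefSeq coordinates were found for all 49. The windows hold the 250 bases upstream of each annotated start on GRCm38. Of the 12 genes that rose, 10 have 1 or more, and Ddx39a and Dhx38 have none. Both strands were searched for 6 motifs, with overlapping matches allowed between motifs: CACGTG (E-box), CCGGAAG (ETS), GGGCGG (GC-box), TGACGTCA (CRE), TGATGNAA (ATF4 element) and CCAAT. Some genes have several overlapping windows, such as the 2 of Ddx49, so genes with a match in any window were counted. The ETS letters occur in 3 of the 10 genes that rose and in 11 of the 34 other members (32.4%), against 7.83% of all 27025 genes. The CRE letters occur in 1 of the 10 genes that rose, Ddx49, and in 3 of the 34 other members (8.82%), against 1.77% of all genes. The E-box occurs in 0 of the 10 genes that rose, 14.7% of the other members and 6.86% of all genes. For the GC-box it is 5 of the 10, 67.6% of the other members and 35.4% of all genes. For CCAAT it is 4 of the 10, 47.1% and 37.5%, and for the ATF4 element 0 of the 10, 0% and 3.91%. A match is a description of letters and not a bound site. The 4 windows shown belong to genes that rose in iCKO and overlap no exon of a protein-coding gene in GENCODE M21. They lie at chr10:62602299-62602548 (Ddx21, minus strand), chr17:35241496-35241745 (Ddx39b, plus strand), chr13:55536659-55536908 (Ddx41, minus strand) and chr13:55634749-55634998 (Ddx46, plus strand). They are written 5′ to 3′ on the strand of the gene, with motif matches in capitals: an ETS match on the opposite strand for Ddx39b, a GC-box on the opposite strand for Ddx46, and no match of the 6 motifs for Ddx21 and Ddx41. The window of Ddx21 overlaps an exon of the noncoding gene Gm47257. That of Ddx46 ends inside the RefSeq gene Ddx46, which starts at chr13:55634975.
Ddx21: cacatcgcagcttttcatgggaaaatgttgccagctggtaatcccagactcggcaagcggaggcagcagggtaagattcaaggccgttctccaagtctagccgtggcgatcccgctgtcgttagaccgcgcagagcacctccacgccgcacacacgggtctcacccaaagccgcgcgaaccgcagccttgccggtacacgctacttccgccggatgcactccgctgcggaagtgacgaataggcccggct
Ddx39b: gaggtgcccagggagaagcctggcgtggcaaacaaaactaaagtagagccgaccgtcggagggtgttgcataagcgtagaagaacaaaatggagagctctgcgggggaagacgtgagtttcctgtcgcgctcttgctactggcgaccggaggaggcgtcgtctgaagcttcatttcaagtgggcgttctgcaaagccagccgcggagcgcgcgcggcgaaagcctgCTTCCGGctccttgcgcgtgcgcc
Ddx41: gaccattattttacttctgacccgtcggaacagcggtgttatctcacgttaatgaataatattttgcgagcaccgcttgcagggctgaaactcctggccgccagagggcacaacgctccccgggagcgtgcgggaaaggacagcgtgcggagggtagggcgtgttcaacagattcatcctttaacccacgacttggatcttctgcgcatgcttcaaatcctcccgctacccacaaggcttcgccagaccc
Ddx46: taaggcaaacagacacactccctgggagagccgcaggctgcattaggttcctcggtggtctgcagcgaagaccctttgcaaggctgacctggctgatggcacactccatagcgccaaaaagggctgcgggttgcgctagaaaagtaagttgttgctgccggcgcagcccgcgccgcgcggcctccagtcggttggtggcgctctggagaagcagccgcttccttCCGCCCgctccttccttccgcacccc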

How the data were processed

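RNA of left ventricles was measured in 4 groups of 3 libraries, grouped by the genotype and treatment in the labels. Per the labels' protocols, Trizol was used for extraction and a stranded TruSeq mRNA kit for the libraries. Per the submitters' processing notes, HISAT2 and DESeq were used with GRCm38. Their versions, the annotation, the counter and the strand setting were not found in those notes or in the labels. As gene-level data the authors deposited whole-number gene counts, 1 table per knockout with its control (17260 and 17325 genes, 16673 in both), which were used as deposited. From these counts, TMM-scaled CPM and edgeR 4.0.16 quasi-likelihood fits (R 4.3.3, filterByExpr with a minimum count of 10 and a minimum total of 15, two-sided, Benjamini-Hochberg over all genes tested, called at 0.05) were computed here. The difference of effects was fitted over all 12 libraries and the genes in both tables. DESeq2 1.42.0, limma 3.58.1, RLE factors, library sizes alone, no filter, a replicate block and left-out libraries were alternatives. In mCKO and CTR1, libraries with equal numbers had correlated deviations from their group means (number 1, r = 0.464; number 2, r = 0.532; number 3, r = 0.823; the limit for pairing was 0.1), although libraries 1 and 2 also correlated across numbers (0.529 and 0.553), and no label gives the meaning of a number. Block values of that experiment therefore stand beside the others where a call changes.

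The helicase members, role lists, partner lists and rules were chosen with earlier results of these data known, so the lists carry no test of their own. Test values were given by rule for 27 members: those called in any comparison with or without the block, the 3 highest and 3 lowest per comparison with average log2 CPM of at least 1, the 5 most abundant per kilobase and the 3 most like DDX5. Other members have test values where they were singled out after their values were seen. Of other helicases and partners the 8 with the smallest adjusted p were named. Exon lengths and overlaps came from GENCODE M21, coordinates and upstream sequences from RefSeq, both on GRCm38. Protein likeness, planned on RefSeq proteins, used instead the longest reading frame of GENCODE M21 transcripts, aligned locally with BLOSUM62 in Biopython 1.88. On simulated counts with known changes, the fit without the block recovered 50% of 2-fold and 98% of 4-fold changes for iCKO against CTR2 (13432 genes run). The simulation held far fewer changed genes than the 3420 higher and 2648 lower calls of that comparison. The adjusted p is stricter where fewer genes change, so the recovery need not carry over to these data. No libraries of a group agreed within sampling noise (lowest chi-square 5.55 per degree of freedom).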

Additional observations from a re-analysis of the deposited data

Results flagged for a closer look

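The effects of the constitutive and the inducible knockout differed by a test of the difference itself (edgeR quasi-likelihood, Benjamini-Hochberg over 13871 genes) for 4 helicase genes. The mCKO effect minus the iCKO effect was -1.23 for Ddx39a, with effects of -0.04 in mCKO and 1.22 in iCKO. It was -0.89 for Ddx39b, with effects of -0.13 in mCKO and 0.79 in iCKO, and -0.85 for Ddx21, with 0.14 in mCKO and 1.03 in iCKO. It was -0.57 for Dhx38, with -0.01 in mCKO and 0.59 in iCKO. The 2 experiments were counted in separate tables and differ in treatment, so that model, tamoxifen and experiment cannot be told apart.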

How the results depend on the processing

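In mCKO against CTR1, 0 members were called in either direction by the main test, and 1 was called higher with the replicate block and 3 with the block and library sizes only. Leaving out libraries gave 0 to 1 higher and 0 to 1 lower, beside 0 to 766 higher and 0 to 742 lower over all genes. Without both libraries numbered 3, 0 members were called, beside 514 higher and 526 lower of all 13357 genes. Ddx5 was called lower in that fit (adjusted p = 8.69e-06, edgeR). In iCKO against CTR2 the 12 higher calls became 9 with the replicate block and 3 to 14 with libraries left out. The replicate numbers do not pair these libraries (r = 0.058, -0.090 and -0.161). Over all genes 3420 were called higher by the main fit, 3055 with the block and 2343 to 3495 with libraries left out. The 1 lower call became 0 with library sizes only, without the filter, with the block, with the block and library sizes only and without both libraries numbered 3, and 0 to 1 with libraries left out. Over all genes the main fit gave 2648 lower calls, library sizes only 1832, no filter 2704 and the block 2436. The block with library sizes only gave 1612, the fit without both libraries numbered 3 gave 2603, and left-out libraries gave 1778 to 3275. In the difference the block gave 1 higher call, beside 2055 over all genes, against 1521 over all genes by the main fit. The 4 lower calls became 7 with RLE factors, 13 with library sizes only, 10 with DESeq2 and 14 with the block and library sizes only. They became 7 without both libraries numbered 3 of mCKO and CTR1, and 3 to 7 with libraries left out. No library left out gave a higher call among the members, beside 989 to 1691 over all genes. Over all 13871 genes the main fit gave 1371 lower calls, RLE factors 1454 and library sizes only 2145. DESeq2 gave 1897, and the block with library sizes only gave 2719. Left-out libraries gave 904 to 1615 lower calls over all genes.

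The summed level of the 49 genes in CPM per kilobase differed by 10.2 (mCKO minus CTR1) and 131 (iCKO minus CTR2) with library sizes only, against -9.19 and 60.7 with TMM factors, and the total with Ddx5 and Ddx17 by 83.3 in iCKO against -1.31. Libraries left out gave 47.6 to 82.2 for the 49 genes and -19.8 to 26.8 for the total in iCKO, and -16.2 to 0.022 and -82.6 to -42.2 in mCKO.

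The values that changed sign were uncalled. With library sizes only and with that and the block, mCKO gave 0.033 and 0.033 for Ddx39a, 0.066 and 0.067 for Dhx38 and 0.035 and 0.038 for Ddx3x (0.033 without both libraries numbered 3). In iCKO they gave 0.068 and 0.0735 for Ddx3x, 0.10 and 0.10 for Ddx42 and, with library sizes only, 0.0058 for Ddx3y. With libraries left out, the ranges in mCKO were -0.017 to 0.43 for Ddx11, -0.12 to 0.027 for Ddx39a, -0.054 to 0.076 for Dhx38 and -0.099 to 0.033 for Ddx3x. They were -0.21 to 3.5e-05 for Ddx42 in iCKO and -0.38 to 0.13 for Ddx17 in the difference. The cause was not tested. Direction and side of the threshold were kept by 272 of 305 alternative values of single genes in mCKO, 315 of 391 in iCKO and 259 of 288 in the difference. With 3 libraries a group, the simulated fit of iCKO against CTR2 missed most 1.5-fold changes. That simulation held far fewer changed genes than were called in iCKO, so its recovery need not carry over to these data.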
